A study of Mus musculus with 9 samples.

Results

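Collagen genes were taken as the annotated mouse genes whose symbol has the form Col, a type number, the letter a and a chain number. The rule found 40 of the 30411 genes with an expression value, of which 9 code for fibril-forming chains (types I, II, III, V and XI), 8 for basement membrane chains (types IV, XV and XVIII) and 23 for chains of other types. Messenger RNA was sequenced from HEI-OC1, an immortalised line derived from the mouse organ of Corti, the hearing epithelium of the cochlea. The 9 libraries form 3 groups of 3. Cells of the pretreated H2O2 group were incubated with a selenium-carrying nanoreactor before they received the oxidant H2O2, cells of the H2O2 group received H2O2 alone, and control cells were left untreated. The nanoreactor is HCS@Se in the sample descriptions and SCGS in the library titles, which were taken as 1 agent. Doses and times were not given, and a group with the nanoreactor but no H2O2 is not part of the design. All libraries come from 1 cell line. The labels call the replicates biosamples without saying that they were separate cultures, so the p-values measure the spread between these samples, which may be technical.

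Collagens are the main structural proteins of the extracellular matrix, built from chains that wind into a triple helix. Fibrillar collagens assemble into the cables of connective tissue, with type V and XI chains inside or on the fibrils of types I, II and III, while type IV collagen forms the sheet-like network of basement membranes. Newly made chains are hydroxylated and folded in the endoplasmic reticulum, cut at their ends after secretion and then crosslinked. In the cochlea, type II, IX and XI chains are known components of the tectorial membrane, and mutations of several collagen genes, among them those of type IV and XI chains, cause hearing loss.

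Libraries held between 55395418 and 67215208 deposited counts. A gene with a count was found 20102 to 20920 times per library in the control and H2O2 groups and 24043 to 24141 times in the pretreated H2O2 libraries. Of the 6 measured hair cell markers, Pou4f3, Otof, Gfi1, Espn and Myo7a averaged at most 0.366 CPM (counts adjusted for library size) in any group. Myo6, a myosin that many cell types also express, averaged 19.4 CPM in pretreated H2O2, 17.3 CPM in H2O2 and 23.9 CPM in control libraries and held nearly all of that list's sum. Fibroblast markers were mixed. Vim averaged 3062 CPM in pretreated H2O2, 3999 CPM in H2O2 and 2931 CPM in control libraries, and Pdgfrb averaged 61.0, 189 and 348 CPM in the same order of groups, whereas Dcn, Lum and Thy1 averaged at most 0.265 CPM in any group. The 11 measured genes of the fibroblast list summed to 5046 to 5091 CPM in pretreated H2O2, 5817 to 5864 CPM in H2O2 and 5361 to 5413 CPM in control libraries. With the test described below, 2 of the 8 tested were called higher and 5 lower in pretreated H2O2 against H2O2, beside 32.4% and 31.3% of all genes. The counts against control were 2 and 6, beside 33.7% and 29.5%. Log2 fold changes of the 8 ran from −1.63 to 4.33 against H2O2 and from −2.51 to 5.77 against control. The 6 smooth muscle markers summed to 2344 to 2375 CPM in pretreated H2O2, 2045 to 2063 CPM in H2O2 and 1384 to 1405 CPM in control libraries. Nearly all of this came from Acta2 and Tagln. With pretreatment, 5 of the 6 were called higher against H2O2 and 5 against control, beside 32.4% and 33.7% of all genes tested. The 10 osteoblast and chondrocyte markers summed to 88.2 to 89.8 CPM, 77.6 to 82.5 CPM and 118 to 120.1 CPM in the same order of groups, with Runx2 and Sox9 as the largest. The part of these markers in the collagen results was not tested. In bulk RNA, a smaller share of cells of one type and less RNA per cell cannot be told apart.

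Collagen RNA made up a smaller share of the libraries after H2O2, with or without the nanoreactor. The 40 genes together took 0.438% ± 0.0043 of all counts in pretreated H2O2 libraries, 0.493% ± 0.0013 in H2O2 libraries and 0.691% ± 0.0046 in control libraries (SD, n = 3 each). The groups did not overlap. A two-sided exact permutation test gave p = 0.1 for each of the 3 comparisons, the smallest value that 3 libraries against 3 can give. The fibrillar genes held most of this share, with 0.313% of counts in pretreated H2O2, 0.364% in H2O2 and 0.494% in control libraries. Basement membrane genes held 0.0262%, 0.0222% and 0.0320% in pretreated H2O2, H2O2 and control libraries, so that for this class the H2O2 group was the lowest. Levels per length are given below as FPKM, the authors' fragments per kilobase of merged exons, scaled to library size. Of summed FPKM, the 40 genes took 0.184% in pretreated H2O2, 0.187% in H2O2 and 0.287% in control libraries. Genes of other types took 0.0517%, 0.0499% and 0.0843% of FPKM in the same order of groups, and 0.0986%, 0.107% and 0.165% of counts. The order of groups was the same on both scales for fibrillar and for basement membrane genes. On this scale Col1a1, Col6a1, Col5a2 and Col5a1 led in every group and together made 70.9% of the summed collagen FPKM in pretreated H2O2, 68.8% in H2O2 and 69.4% in control libraries.

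Differences were tested with edgeR's quasi-likelihood test on the deposited counts of all 18092 genes that passed a filter on low counts, and a gene was called higher or lower at a Benjamini-Hochberg adjusted p under 0.05. Of the 40 collagen genes, 31 were tested. In H2O2 against control, 18 of the 31 were called lower and 1 was called higher, beside 24.1% lower and 24.6% higher among all genes tested. The median log2 fold change of the 31 was −0.49, against 0.02 over all genes tested. In pretreated H2O2 against H2O2, 12 were called higher and 12 lower, beside 32.4% and 31.3% of all genes, with a median of 0.06 against 0.02. In pretreated H2O2 against control, 7 were called higher and 16 lower, beside 33.7% and 29.5% of all genes, with a median of −0.28 against 0.06. The comparisons share libraries, so their calls are not independent of each other.

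Level divided these calls. All 16 collagen genes that averaged at least 20 CPM over the 9 libraries were called lower in H2O2 against control, where 39.1% of all genes at that level were lower and 39.5% higher. For pretreated H2O2 against H2O2, 5 of the 16 were higher and 10 lower, beside 35.9% and 46.1%. Against control, 13 of the 16 were lower with pretreatment and 1 was higher, beside 41.9% and 38.2%. Among the 15 tested collagen genes below 20 CPM, 7 were called higher and 2 lower in pretreated H2O2 against H2O2, beside 29.7% and 20.2% of all tested genes below 20 CPM. The same 15 had 6 higher and 3 lower in pretreated H2O2 against control, beside 30.3% and 20.3%, and 1 higher and 2 lower in H2O2 against control, beside 13.6% and 13%. Of these 15, Col10a1 and Col27a1 passed the filter only through the pretreated H2O2 libraries, so for them a higher value there was a condition of being tested.

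**Figure D1:**
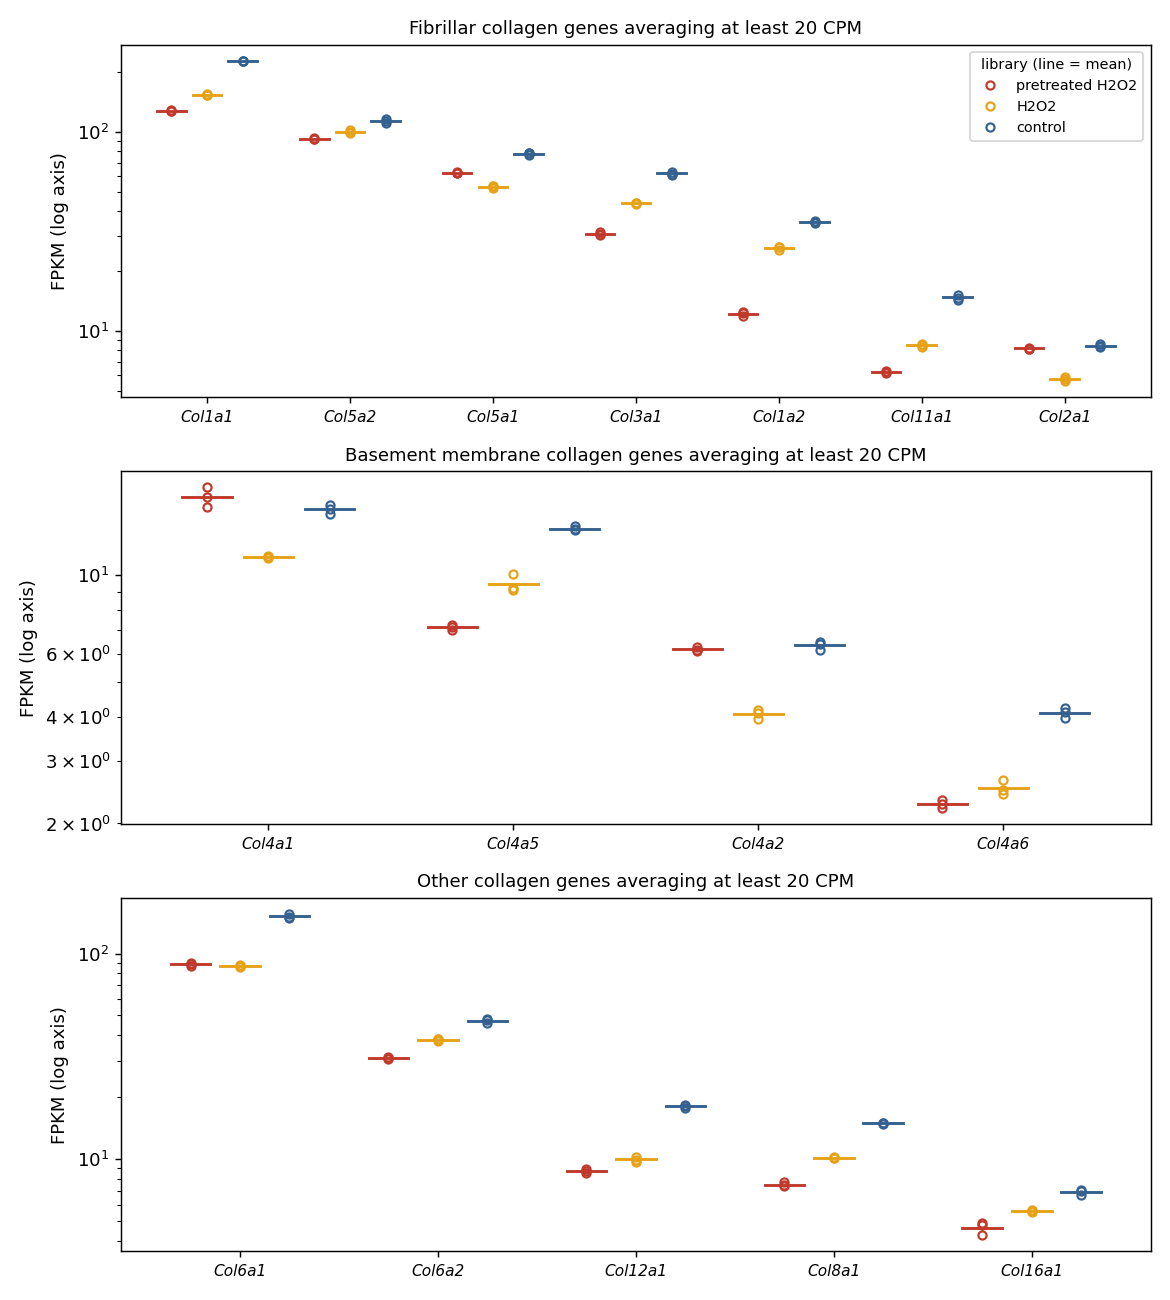
FPKM on a log axis of the 16 collagen genes averaging at least 20 CPM, by class, in each library of the pretreated H2O2 (red, left), H2O2 (orange, middle) and control (blue, right) groups; circles are libraries and lines are means of 3. In every gene the 3 H2O2 libraries lie below the 3 control libraries, while the pretreated H2O2 libraries lie below those of H2O2 for Col1a1, Col1a2, Col3a1 and Col11a1 and above them for Col2a1, Col4a1, Col4a2 and Col5a1.

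Among the fibrillar genes, 7 of 9 were called lower in H2O2 against control and none was called higher, beside 24.1% and 24.6% of all genes. Between pretreated H2O2 and H2O2, 4 were higher and 5 lower, beside 32.4% and 31.3%, and against control 2 were higher and 6 lower, beside 33.7% and 29.5%. The 7 genes lowered by H2O2 were the 7 abundant ones, coding for the chains of types I, II and III, the α1 and α2 chains of type V and the α1 chain of type XI. Col5a3 and Col11a2, at low levels, were not called in H2O2 against control (log2 fold changes 0.14 and −0.51, adjusted p = 0.591 and 0.050) and were both higher with pretreatment. The Col11a2 value sat at the threshold and passed it in 6 of the alternative settings, 1 of them without control replicate 2 (−0.72, adjusted p = 1.99e-03).

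Type I collagen, the most abundant fibril former, has α1 chains from Col1a1 (chromosome 11, 94936224 to 94953042, plus strand of GRCm38) and α2 chains from Col1a2 (chromosome 6, 4504814 to 4541544, plus strand). Col1a1 had 128, 128 and 129 FPKM in pretreated H2O2 libraries, 154, 155 and 154 FPKM in H2O2 libraries and 227, 227 and 228 FPKM in control libraries. The groups were far apart relative to their spread, with log2 fold changes of −0.55 ± 0.016 for H2O2 against control (SE, adjusted p = 5.39e-11), −0.24 for pretreated H2O2 against H2O2 (adjusted p = 5.90e-08) and −0.78 for pretreated H2O2 against control (adjusted p = 9.90e-13). Col1a2 had 12.3, 11.9 and 12.4 FPKM in pretreated H2O2 libraries, 26.3, 25.5 and 26.3 FPKM in H2O2 libraries and 35.6, 34.8 and 35.2 FPKM in control libraries. Its difference between pretreated H2O2 and H2O2 was the larger one, with a log2 fold change of −1.06 ± 0.024 (SE, adjusted p = 2.72e-12), against −0.42 ± 0.023 for H2O2 against control (SE, adjusted p = 1.19e-08). Col1a2 was the most lowered collagen gene in both comparisons of the pretreated group, at −1.48 against control (adjusted p = 1.42e-13).

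The Col1a2 promoter is shown because its gene had this largest fall. It comes from RefSeq on GRCm38.p6 (chr6:4505368-4505667, plus strand, 250 bases before to 50 bases after the start annotated there). That start lies downstream of the gene start given above, 4504814, so the window does not cover the latter. Capitals mark the 4 motif matches found, 2 of CCAAT or its reverse complement and 2 of GGGCGG.
Col1a2: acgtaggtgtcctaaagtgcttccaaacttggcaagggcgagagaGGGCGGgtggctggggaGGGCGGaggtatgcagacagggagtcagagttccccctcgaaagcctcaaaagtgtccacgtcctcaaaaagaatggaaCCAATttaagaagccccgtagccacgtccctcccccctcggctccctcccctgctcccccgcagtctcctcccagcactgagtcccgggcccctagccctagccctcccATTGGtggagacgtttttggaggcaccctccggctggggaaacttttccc
RefSeq windows of this kind were found for 32 of the 40 members. Both strands of each window were searched for 5 motifs. CCAAT was present for 13 of the 32 members and in 37.4% of all 32851 windows, GGGCGG for 21 members and in 35.7% of windows, TATAAA for 4 and in 13.6%, TGANTCA for 1 and in 7.81%, and TGACNNNGC for 6 and in 12.4%. The members had 35 windows, and a member counted if any of its windows matched, whereas the percentages are per window. The GC content of the windows was not compared. A match describes these letters only.

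Type III collagen, a homotrimer that often shares fibrils with type I, gave the same order of groups. Col3a1 had 30.4, 30.7 and 31.2 FPKM in pretreated H2O2 libraries, 44.0, 43.4 and 43.9 FPKM in H2O2 libraries and 60.7, 63.3 and 61.7 FPKM in control libraries, and was called lower in each comparison (−0.49 for H2O2 against control, −0.48 for pretreated H2O2 against H2O2). Its neighbour on chromosome 1, Col5a2, lies 24614 bases away on the other strand and codes for a type V chain that regulates fibril diameter. Col5a2 moved less, with 91.8, 91.9 and 92.8 FPKM in pretreated H2O2, 99.9, 98.7 and 102.8 FPKM in H2O2 and 115.9, 113.7 and 111.2 FPKM in control libraries. Its log2 fold changes were −0.17 ± 0.021 for H2O2 against control and −0.09 ± 0.021 for pretreated H2O2 against H2O2 (SE, adjusted p = 2.61e-05 and 1.87e-03). The second of these was lost with the size factors of DESeq2 (−0.04, adjusted p = 0.119), with DESeq2's own test and with a filter at a mean of 1 CPM.

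Col5a1, which codes for the partner of the Col5a2 chain, differed between pretreated H2O2 and H2O2 in the other direction. It had 61.9, 62.9 and 62.5 FPKM in pretreated H2O2 libraries, 53.2, 53.8 and 52.3 FPKM in H2O2 libraries and 76.2, 78.5 and 78.7 FPKM in control libraries. The H2O2 group was lowest, and the log2 fold changes were −0.54 for H2O2 against control (adjusted p = 4.09e-10), 0.26 for pretreated H2O2 against H2O2 (adjusted p = 1.92e-07) and −0.28 for pretreated H2O2 against control (adjusted p = 1.17e-07). Type II collagen, the main collagen of cartilage and also a tectorial membrane component, comes from Col2a1. It had 8.14, 8.11 and 8.21 FPKM in pretreated H2O2, 5.89, 5.58 and 5.70 FPKM in H2O2 and 8.25, 8.56 and 8.37 FPKM in control libraries. Pretreated H2O2 libraries were above H2O2 by 0.54 ± 0.031 (SE, adjusted p = 1.14e-08) and were not called against control (0.00 ± 0.031, adjusted p = 0.989). The α1 chain of type XI, which nucleates type II fibrils, is encoded by Col11a1. It had 6.16, 6.26 and 6.19 FPKM in pretreated H2O2, 8.48, 8.34 and 8.57 FPKM in H2O2 and 15.2, 14.7 and 14.3 FPKM in control libraries. Both H2O2 against control (−0.79, adjusted p = 1.32e-10) and pretreated H2O2 against H2O2 (−0.42, adjusted p = 2.69e-08) were called lower.

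Of the 8 basement membrane genes, 7 were tested. In H2O2 against control, 5 were called lower and none higher, beside 24.1% and 24.6% of all genes. With pretreatment against H2O2 alone, 3 were higher (Col4a1, Col4a2 and Col4a4) and 1 was lower (Col4a5), beside 32.4% and 31.3%. Against control 2 were higher and 3 lower, beside 33.7% and 29.5%. Col15a1, at 1.13 ± 0.23 CPM in pretreated H2O2, 1.21 ± 0.19 CPM in H2O2 and 1.44 ± 0.45 CPM in control libraries (SD, n = 3 each), was called in no comparison. Type IV genes sit in pairs that start close together on opposite strands, and the pairs can be followed separately.

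Col4a1 and Col4a2 code for the chains of the common type IV network and start 21 bases apart on chromosome 8, sharing 22 exon bases. Col4a1 had 15.6, 17.7 and 16.6 FPKM in pretreated H2O2 libraries, 11.2, 11.2 and 11.3 FPKM in H2O2 libraries and 14.9, 15.3 and 15.8 FPKM in control libraries. Col4a2 had 6.15, 6.29 and 6.14 FPKM in pretreated H2O2 libraries, 3.93, 4.18 and 4.08 FPKM in H2O2 libraries and 6.14, 6.39 and 6.49 FPKM in control libraries. For both genes the H2O2 libraries were the lowest 3 of the 9, and the pretreated and control libraries overlapped on this scale. H2O2 against control gave −0.44 for Col4a1 and −0.63 for Col4a2 (adjusted p = 1.31e-06 and 1.18e-07), and pretreated H2O2 against H2O2 gave 0.59 and 0.64 (adjusted p = 5.46e-08 and 7.69e-08). Against control, pretreated Col4a1 was called higher by 0.16 ± 0.040 (SE, adjusted p = 4.00e-03) and Col4a2 was not called (0.01 ± 0.044, adjusted p = 0.902). The Col4a1 call was lost when log2 FPKM was tested with limma (0.11 on the log2(FPKM + 0.1) scale, adjusted p = 0.0541).

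The promoter windows of this pair are shown because the genes start next to each other. Both were also called lower in H2O2 against control and higher in pretreated H2O2 against H2O2, by unequal amounts in the first. A part of the shared bases in these changes was not tested. They come from RefSeq on GRCm38.p6, for Col4a1 chr8:11312777-11313076 on the minus strand and for Col4a2 chr8:11312555-11312854 on the plus strand, and capitals mark the 78 bases that both windows hold, as reverse complements.
Col4a1: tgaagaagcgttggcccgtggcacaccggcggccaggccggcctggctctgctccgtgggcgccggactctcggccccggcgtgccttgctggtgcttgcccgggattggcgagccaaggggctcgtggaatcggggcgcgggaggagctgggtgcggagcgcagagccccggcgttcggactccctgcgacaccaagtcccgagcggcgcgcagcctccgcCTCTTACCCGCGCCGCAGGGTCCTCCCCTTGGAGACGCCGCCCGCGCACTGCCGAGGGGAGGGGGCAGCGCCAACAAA
Col4a2: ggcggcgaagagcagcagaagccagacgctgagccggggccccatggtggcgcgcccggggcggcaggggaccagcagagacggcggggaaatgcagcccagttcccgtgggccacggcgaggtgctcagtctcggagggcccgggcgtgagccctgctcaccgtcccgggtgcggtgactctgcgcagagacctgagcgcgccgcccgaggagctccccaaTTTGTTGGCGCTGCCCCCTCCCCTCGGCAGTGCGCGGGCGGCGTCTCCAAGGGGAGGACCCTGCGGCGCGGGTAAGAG

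Col4a5 and Col4a6, the X-linked pair whose chains occur in specialised basement membranes, start 1309 bases apart. Col4a5 had 7.22, 7.16 and 7.00 FPKM in pretreated H2O2 libraries, 10.1, 9.18 and 9.12 FPKM in H2O2 libraries and 13.7, 13.4 and 13.5 FPKM in control libraries. Col4a6 had 2.33, 2.27 and 2.21 FPKM in pretreated H2O2 libraries, 2.42, 2.65 and 2.48 FPKM in H2O2 libraries and 3.97, 4.11 and 4.23 FPKM in control libraries. Here the pretreated group was lowest for both genes. H2O2 against control gave −0.51 and −0.69 (adjusted p = 1.78e-07 and 8.05e-07). Pretreated H2O2 against H2O2 gave −0.38 for Col4a5 (adjusted p = 2.39e-06) and −0.12 ± 0.061 for Col4a6 (SE, adjusted p = 0.107), which was not called. The pair Col4a3 and Col4a4 on chromosome 1, whose chains join that of Col4a5 in the kidney filter and the inner ear, was near the detection limit. Col4a4 had 83, 59 and 50 counts in pretreated H2O2, 14, 5 and 8 counts in H2O2 and 17, 9 and 8 counts in control libraries, a log2 fold change of 2.80 ± 0.514 for pretreated H2O2 against H2O2 (SE, adjusted p = 4.13e-04). Col4a3 had 5, 11 and 10 counts, 4, 0 and 0 counts and 0 counts in each control library, and was not tested. Col18a1, whose protein is the source of endostatin, had 9.18, 10.3 and 8.32 CPM in pretreated H2O2, 9.68, 7.69 and 9.34 CPM in H2O2 and 14.9, 15.4 and 13.2 CPM in control libraries. It was lower in H2O2 than in control by 0.70 on the log2 scale (log2 fold change −0.70 ± 0.116, SE, adjusted p = 2.33e-04), and its pretreated and H2O2 libraries overlapped.

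Of the 23 genes of other types, 15 were tested. In H2O2 against control, 6 were called lower and 1 higher, beside 24.1% and 24.6% of all genes. Pretreatment against H2O2 alone gave 5 higher and 6 lower, beside 32.4% and 31.3%. Against control 3 were higher and 7 lower, beside 33.7% and 29.5%. Type VI collagen forms beaded microfibrils around cells from α1, α2 and α3-like chains. Col6a1 had 88.6, 90.5 and 86.8 FPKM in pretreated H2O2 libraries, 86.5, 87.9 and 86.6 FPKM in H2O2 libraries and 149.6, 150.1 and 155.2 FPKM in control libraries. Its level was low in both groups given H2O2, whose FPKM values overlapped, with −0.79 ± 0.022 for H2O2 against control (SE, adjusted p = 3.87e-11) and −0.73 for pretreated H2O2 against control (adjusted p = 3.33e-11). The difference between pretreated H2O2 and H2O2, 0.06 ± 0.022 (SE, adjusted p = 0.0401), lost its call in 6 settings outside the offsets described below and without any 1 of control replicate 2 or 3, H2O2 replicate 1, 2 or 3, or pretreated H2O2 replicate 1 or 2, the value lying between 0.05 and 0.07 when 1 library was left out. Col6a2, 85161 bases from Col6a1 on chromosome 10, had 30.6, 31.3 and 31.2 FPKM in pretreated H2O2, 37.5, 38.4 and 38.2 FPKM in H2O2 and 46.0, 47.5 and 47.9 FPKM in control libraries, with −0.30 for H2O2 against control and −0.26 for pretreated H2O2 against H2O2. The third chain was scarce: Col6a3 had 4.85, 4.11 and 4.30 CPM in pretreated H2O2, 6.40, 6.33 and 5.65 CPM in H2O2 and 9.66, 9.43 and 10.4 CPM in control libraries, with −0.68 and −0.47 in the same 2 comparisons (adjusted p = 1.92e-04 and 2.67e-03).

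The remaining abundant genes were lowest in pretreated H2O2 libraries. Col12a1, a collagen attached to fibril surfaces, had 8.95, 8.53 and 8.77 FPKM in pretreated H2O2, 10.3, 9.69 and 9.94 FPKM in H2O2 and 18.3, 18.1 and 17.7 FPKM in control libraries. Most of its difference lay between H2O2 and control (−0.84 ± 0.027, SE, adjusted p = 1.17e-10), with −0.16 between pretreated H2O2 and H2O2 (adjusted p = 2.83e-04). Col8a1, of the network-forming type VIII, had 7.70, 7.41 and 7.44 FPKM in pretreated H2O2, 10.2, 10.1 and 10.1 FPKM in H2O2 and 15.0, 15.1 and 14.8 FPKM in control libraries. It was called lower in both comparisons, by −0.54 and −0.40 on the log2 scale. Col16a1, a fibril-associated collagen, had 4.27, 4.89 and 4.76 FPKM in pretreated H2O2, 5.62, 5.60 and 5.52 FPKM in H2O2 and 7.06, 7.00 and 6.70 FPKM in control libraries, with −0.30 and −0.23. Col7a1, which codes for the anchoring fibrils of epithelia, was the exception in order: it had 10.1, 11.6 and 10.6 CPM in pretreated H2O2, 16.9, 16.3 and 14.5 CPM in H2O2 and 11.8, 13.9 and 14.7 CPM in control libraries. Pretreated libraries were below H2O2 (−0.57 ± 0.103, SE, adjusted p = 3.91e-04), while H2O2 against control was not called (0.24 ± 0.103, adjusted p = 0.0716).

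**Figure D2:**
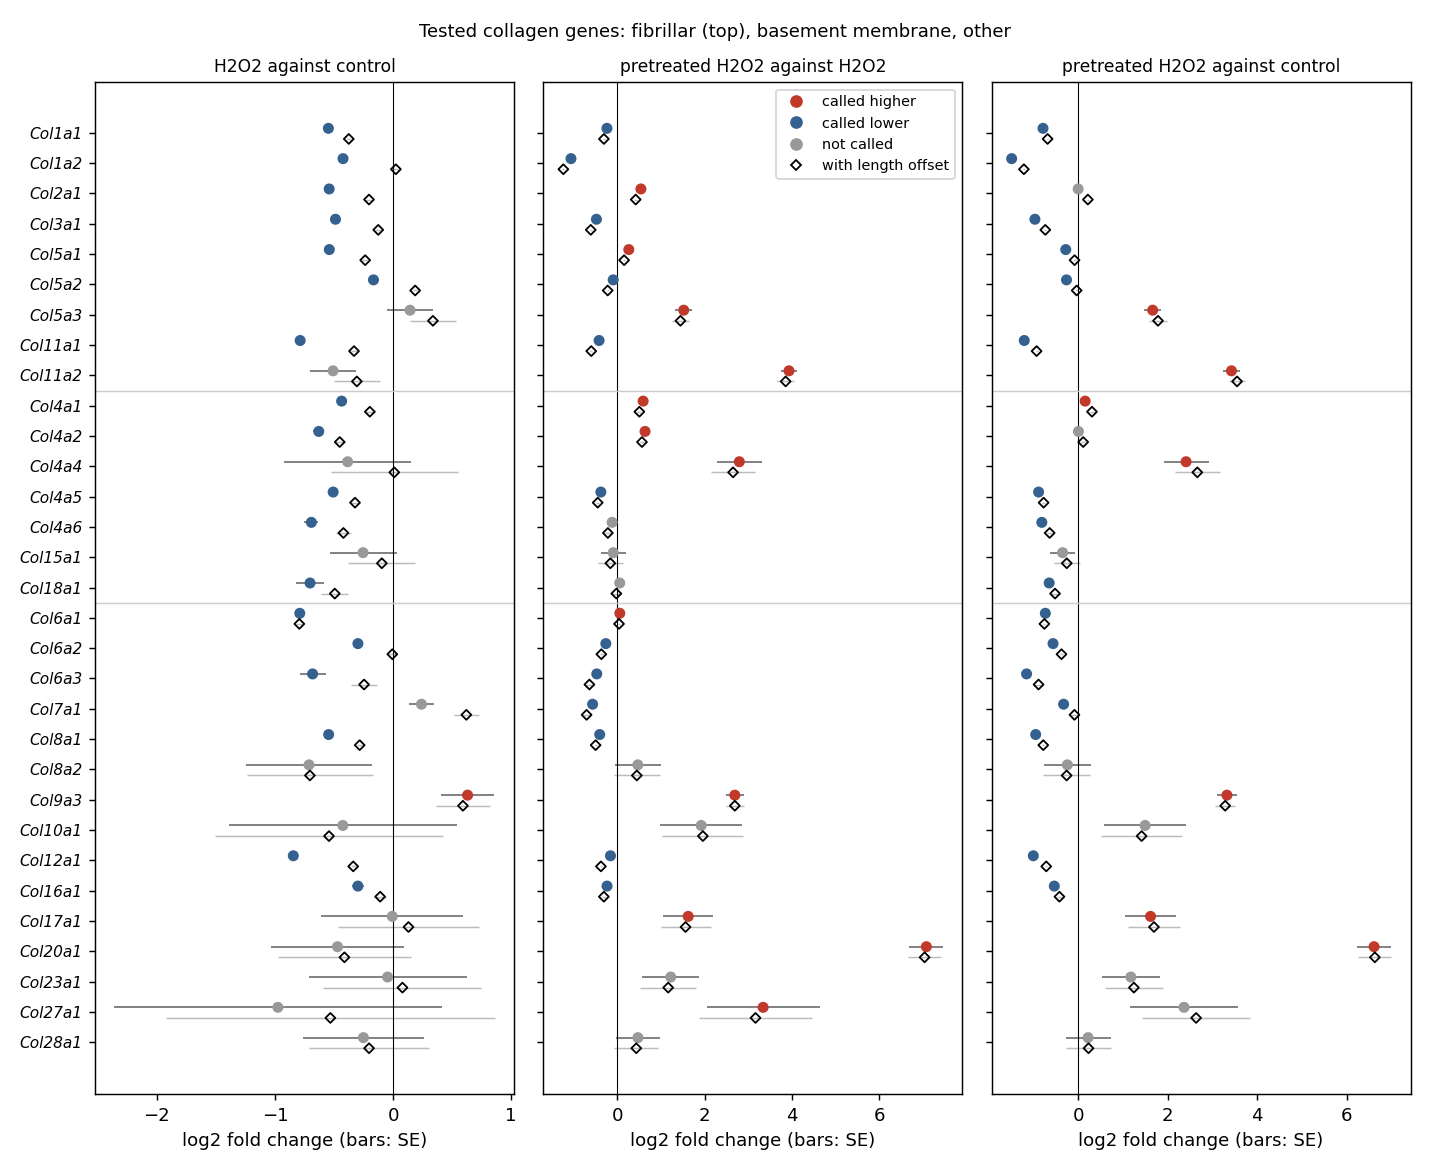
Log2 fold changes with SE of the 31 tested collagen genes in H2O2 against control (left), pretreated H2O2 against H2O2 (middle) and pretreated H2O2 against control (right); filled circles are the edgeR values coloured by call, and open diamonds the values with a length offset. The left panel has the largest shifts between circle and diamond, where Col5a2 passes from −0.17 to 0.19, and Col20a1, at 7.08 and 6.61, stands apart in the other panels; the horizontal axes differ between panels.

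Of the 15 tested collagen genes below 20 CPM, 6 were called higher in pretreated H2O2 than in both other groups. Among all tested genes below 20 CPM, 29.7% were called higher against H2O2 and 30.3% against control. Both comparisons share the pretreated libraries, and the share of all genes called higher in both was not counted. The 6 genes were Col20a1, Col11a2, Col9a3, Col5a3, Col17a1 and the already described Col4a4. Col20a1 (chromosome 2, 180986535 to 181017714, plus strand), a little-studied member of the fibril-associated family, had 1277, 1244 and 1295 counts in pretreated H2O2 libraries, 0, 11 and 17 counts in H2O2 libraries and 9, 13 and 15 counts in control libraries. That is 19.9 ± 0.55 CPM in pretreated H2O2 against 0.142 ± 0.13 CPM in H2O2 and 0.202 ± 0.048 CPM in control libraries (SD, n = 3 each). The log2 fold changes were 7.08 ± 0.388 against H2O2 and 6.61 ± 0.374 against control (SE, adjusted p = 7.63e-09 and 9.74e-09). Among low deposited counts, 4, 8 and 12 were each more frequent than the values next to them (for 8, 4196 times against 2600 for 7 and 2014 for 9), although most low counts are other numbers. If 4 counts are taken as 1 fragment, the ratio to H2O2 was 134 with a 95% counting interval of 64.5 to 333, which covers counting error only and is approximate because the worth of a count is not known. Col20a1 shares 79 exon bases with the noncoding gene BX649560.1 on the same strand, which had 319, 339 and 295 counts in pretreated H2O2, 148, 181 and 181 counts in H2O2 and 236, 188 and 183 counts in control libraries.

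Its promoter window is shown because no other collagen gene differed as much between groups. The window comes from RefSeq on GRCm38.p6 (chr2:180986285-180986584, plus strand). None of the 5 motifs listed above was found in it, so it carries no capitals.
Col20a1: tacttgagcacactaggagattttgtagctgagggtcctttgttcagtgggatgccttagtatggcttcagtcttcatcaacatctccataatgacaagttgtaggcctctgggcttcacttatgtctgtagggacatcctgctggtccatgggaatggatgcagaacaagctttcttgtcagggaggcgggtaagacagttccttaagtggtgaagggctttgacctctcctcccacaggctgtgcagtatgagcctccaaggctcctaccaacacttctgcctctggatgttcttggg

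Col11a2, the α2 chain of type XI and a known deafness gene, had 15.9, 16.8 and 16.1 CPM in pretreated H2O2 libraries, 1.06, 0.943 and 1.18 CPM in H2O2 libraries and 1.62, 1.02 and 1.88 CPM in control libraries. The pretreated libraries stood well above all others, with log2 fold changes of 3.93 ± 0.193 against H2O2 and 3.43 ± 0.186 against control (SE, adjusted p = 2.66e-09 and 6.75e-09). This is the reverse of its partner Col11a1, which was lowest in pretreated H2O2. Col9a3, a type IX chain that coats type II fibrils, had 322, 387 and 306 counts in pretreated H2O2, 53, 53 and 51 counts in H2O2 and 30, 38 and 28 counts in control libraries. Pretreated H2O2 was above H2O2 by 2.69 ± 0.209 (SE, adjusted p = 1.97e-07). Col9a3 was also the 1 collagen gene called higher in H2O2 against control (0.63 ± 0.224, SE, adjusted p = 0.0339), but the call was lost with DESeq2, with no filter, with the length offset and without any 1 of control replicate 1 or 3, H2O2 replicate 1, 2 or 3, or pretreated H2O2 replicate 1 or 3. The call was also lost when edgeR was run on counts divided by 4 (0.56, adjusted p = 0.166). The same held with limma on FPKM and with only the 6 libraries of the comparison. Col9a3 shares 234 exon bases with Tcfl5 on the other strand. Tcfl5 had 123, 77 and 72 counts in pretreated H2O2 and at most 5 counts in any other library. The partner chains Col9a1 and Col9a2 had at most 8 counts in any library.

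Col5a3, the third type V chain, had 3.93, 3.72 and 3.57 CPM in pretreated H2O2 libraries, 1.28, 1.37 and 1.26 CPM in H2O2 libraries and 1.09, 1.46 and 0.984 CPM in control libraries. Its log2 fold change against H2O2 was 1.52 ± 0.190 (SE, adjusted p = 1.55e-05). Col17a1, a transmembrane collagen of epithelial hemidesmosomes, had 75, 49 and 29 counts in pretreated H2O2, 19, 8 and 22 counts in H2O2 and 13, 25 and 8 counts in control libraries (1.62 ± 0.575 against H2O2, SE, adjusted p = 0.0259). Col27a1, a fibril-forming relative outside the types counted as fibrillar here, had 11, 36 and 16 counts in pretreated H2O2, 0, 2 and 4 counts in H2O2 and 0, 0 and 12 counts in control libraries. It was called higher against H2O2 but not against control (2.37 ± 1.199, SE, adjusted p = 0.106), where its pretreated replicate 1 lay below control replicate 3, and it was tested only because of its pretreated libraries. The pretreated libraries also held more low-level RNA of other kinds. The 6 measured endothelial markers summed to 4.19 to 5.89 CPM in pretreated H2O2, 0.696 to 1.17 CPM in H2O2 and 0.114 to 0.500 CPM in control libraries, and the 7 measured epithelial markers to 2.94 to 3.82 CPM, 1.47 to 2.27 CPM and 1.06 to 1.41 CPM in the same order, with Epcam at 0 in all H2O2 and control libraries and averaging 0.0159 CPM in pretreated H2O2. The 8 measured markers of cochlear supporting cells summed to 13.1 to 16.3 CPM in pretreated H2O2, 6.68 to 7.80 CPM in H2O2 and 7.95 to 8.34 CPM in control libraries, and the 3 measured immune markers to 7.03 to 7.41 CPM, 3.46 to 4.99 CPM and 1.14 to 1.52 CPM in the same order. The 5 measured glial markers summed to 1.70 to 2.28 CPM, 0.440 to 0.530 CPM and 0.393 to 0.702 CPM. The part of these markers in the low-level collagen results was not tested.

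**Figure D3:**
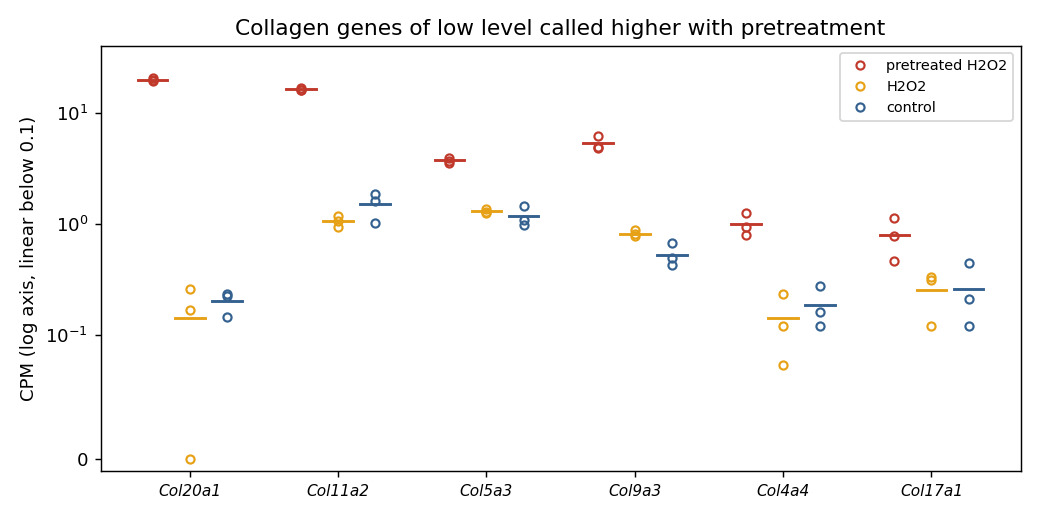
CPM (log axis, linear below 0.1) of 6 scarce collagen genes called higher in pretreated H2O2 than in H2O2, in each library of the pretreated H2O2 (red, left), H2O2 (orange, middle) and control (blue, right) groups; lines are means of 3 libraries. All 3 pretreated libraries lie above the 6 others in each gene, at 19.9 CPM on average for Col20a1 and 0.794 CPM for Col17a1.

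Of the 31 tested genes, 5 were called in no comparison. These were Col10a1, Col15a1, Col23a1, Col28a1 and Col8a2, each averaging under 1.5 CPM in every group. The missing calls do not show that their levels were alike. The 9 genes that were not tested (Col4a3, Col6a4, Col6a5, Col9a1, Col9a2, Col14a1, Col24a1, Col25a1 and Col26a1) had at most 26 counts in any library. A further 4 genes of the annotation, Col13a1, Col19a1, Col22a1 and Col6a6, had 0 counts in all 9 libraries, where 12 counts, 3 fragments if 4 counts are 1 fragment, is the limit that a count of 0 allows in a library.

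Chains that assemble together did not keep a constant ratio. Col1a1 exceeded Col1a2 by a factor of 10.5 ± 0.20 in FPKM in pretreated H2O2 libraries, 5.93 ± 0.13 in H2O2 libraries and 6.46 ± 0.075 in control libraries (SD, n = 3 each). The authors' FPKM divides by all annotated exons of a gene merged, which is 12426 bases for Col1a2, whereas its longest transcript has 5348 bases. Per kilobase of the longest transcript the ratio was 5.00 in pretreated H2O2, 2.82 in H2O2 and 3.08 in control libraries, so the level of the ratio depended on the length used. The lengths cancel from its change between groups, which was 1.77 times for pretreated H2O2 over H2O2. For Col6a1 over Col6a2 the FPKM ratio was 2.86 in pretreated H2O2, 2.29 in H2O2 and 3.22 in control libraries, and for Col5a1 over Col5a2 it was 0.677, 0.529 and 0.685. Col11a1 over Col5a1, chains that can occur in mixed fibrils, gave 0.0994, 0.159 and 0.189. Col4a1 over Col4a2 was steadier, at 2.68, 2.77 and 2.42 in pretreated H2O2, H2O2 and control libraries. In these 5 ratios the groups did not overlap, save pretreated H2O2 and H2O2 for Col4a1 over Col4a2 and pretreated H2O2 and control for Col5a1 over Col5a2. Each comparison without overlap had p = 0.1 in a two-sided exact permutation test, the smallest that 3 libraries against 3 can give, and the 2 with overlap had p = 0.5 and 0.6.

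**Figure D4:**
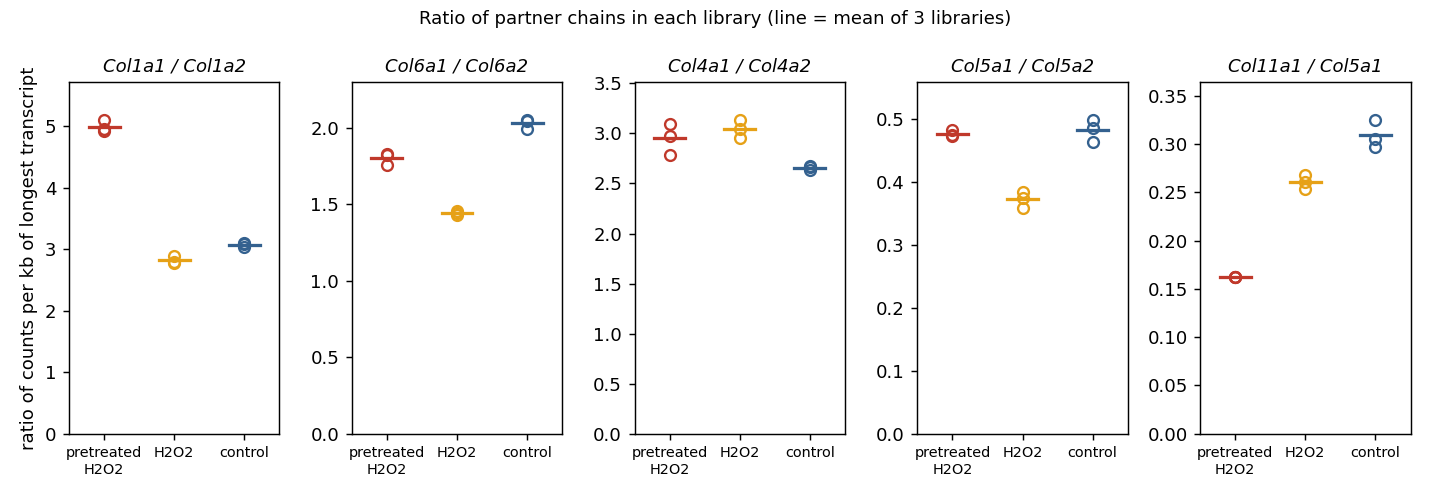
Ratio of counts per kilobase of the longest transcript for 5 pairs of collagen chains, in each library of the pretreated H2O2 (red, left), H2O2 (orange, middle) and control (blue, right) groups; lines are means of 3 libraries and axes start at 0. Col1a1 over Col1a2 is 5.00 in pretreated H2O2 against 2.82 in H2O2, whereas Col4a1 over Col4a2 averages 2.95 in pretreated H2O2, 3.04 in H2O2 and 2.66 in control libraries.

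Transcript length moved with the H2O2 difference over all genes, and collagen transcripts are long. Merged exon length had a median of 7021 bases over the 31 tested collagen genes and 3534.5 bases over all genes tested, and 25 of the 31 lay in the longest 3 of 10 equal classes of length. In H2O2 against control the median log2 fold change was 0.33 in the shortest of these classes and −0.44 in the longest, where 66.9% of genes were called lower. Pretreated H2O2 against H2O2 had a weaker slope in the other direction, with a median of 0.15 in the longest class, and pretreated H2O2 against control had −0.28 there. A length offset was fitted, which takes out of each library a smooth trend on length. The trend was that of log2 levels relative to each gene's mean, over tested genes averaging at least 1 CPM. Length in the classes and in this offset was the one implied by count and FPKM, proportional to merged exon length for nearly all abundant genes. With it, 13 collagen genes were lower and 2 higher in H2O2 against control, beside 20.9% and 20.7% of all genes, and the collagen median was −0.24. Pretreated H2O2 against H2O2 then had 11 higher and 13 lower, beside 32.1% and 31.1% of all genes, and pretreated H2O2 against control had 9 higher and 14 lower, beside 32.9% and 29.6%.

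Several H2O2 differences changed with the offset. Col1a2 was no longer called in H2O2 against control (0.02, adjusted p = 0.401), nor were Col6a2 (−0.01), Col6a3 (−0.25), Col16a1 (−0.11) and Col9a3 (0.59). Col5a2 turned to 0.19 (adjusted p = 6.43e-06), and Col7a1 reached 0.62 (adjusted p = 4.47e-04). Col6a1, at 4380 bases one of the shorter collagen genes, kept −0.79, the most negative value of the abundant collagens under the offset. Col1a1 had −0.37, Col4a2 −0.45 and Col4a6 −0.42, while Col12a1, the longest at 15228 bases, had −0.34 in place of −0.84. Col11a1 and Col2a1 moved to −0.33 and −0.20, Col3a1 to −0.13, Col4a1 to −0.20, Col4a5 to −0.32, Col5a1 to −0.24 and Col8a1 to −0.28, and all 7 were still called lower.

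The differences between pretreated H2O2 and H2O2 were less tied to length. Under the offset Col1a2 had −1.24, Col3a1 −0.61, Col11a1 −0.60, Col12a1 −0.37 and Col5a2 −0.22, each more negative than without it. Col2a1 had 0.42, Col4a1 0.51, Col4a2 0.57 and Col5a1 0.16, each smaller but still called higher, and Col4a6 became lower at −0.22 (adjusted p = 9.40e-03). Col6a1 was no longer called (0.04). Against control, pretreated Col2a1 and Col4a2 were called higher (0.22 and 0.11), pretreated Col5a2 and Col7a1 were no longer called (−0.03 and −0.08), and pretreated Col4a1 had 0.31 in place of 0.16. The choice of length mattered too, since merged exons exceed the longest transcript by up to 2.32 times among the tested collagens, for Col1a2. With an offset on the longest transcript, 2 collagen genes were higher and 12 lower in H2O2 against control (17.7% and 19.4% of all genes), 9 and 13 in pretreated H2O2 against H2O2 (32.2% and 30.2%), and 9 and 13 in pretreated H2O2 against control (32.5% and 29.9%). Under it Col1a2 stayed lower in H2O2 against control (−0.13), while Col4a1 (adjusted p = 0.999), Col4a5 (−0.08) and Col5a1 (0.02) were no longer called, and Col5a1 lost its call in both comparisons of the pretreated group (−0.03 against H2O2, −0.01 against control).

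**Figure D5:**
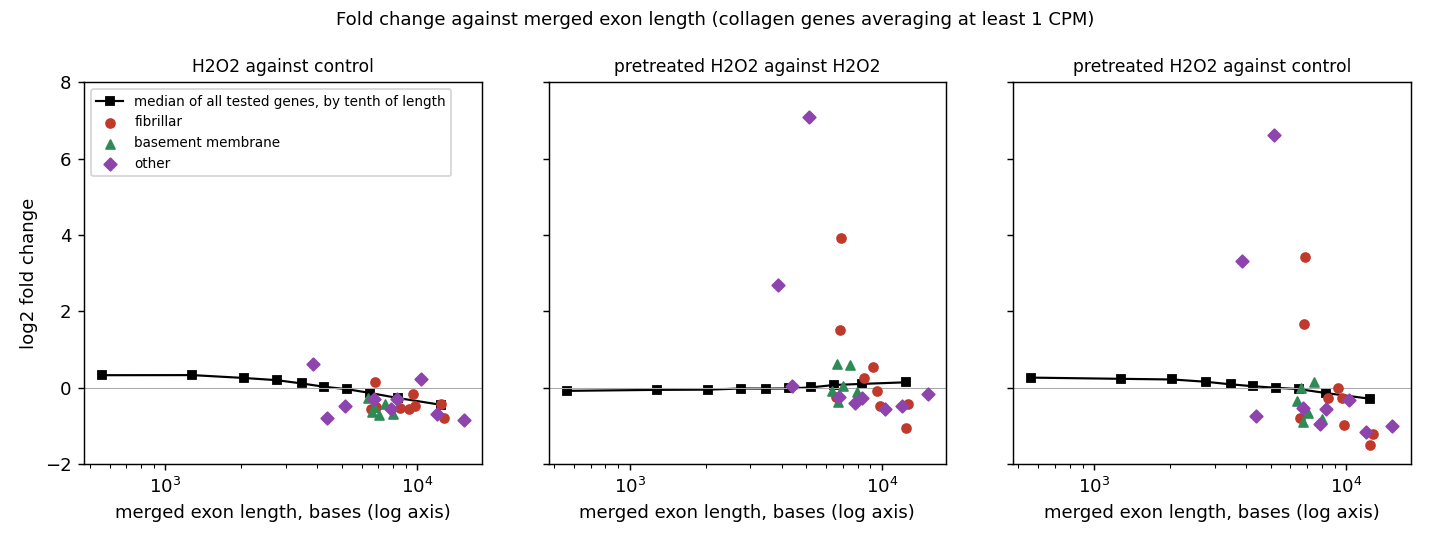
Log2 fold change against merged exon length (log axis) for collagen genes averaging at least 1 CPM, by class, with the median of all tested genes in each of 10 classes of length (black squares and line), for H2O2 against control (left), pretreated H2O2 against H2O2 (middle) and pretreated H2O2 against control (right). The squares stand at the length implied by count and FPKM, which differs from merged exon length by a constant factor, so points and line are slightly offset along the axis. The black line runs from 0.33 to −0.44 in the left panel, near many of the collagen points, while Col20a1, Col11a2 and Col9a3 lie far above it in the other panels.

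Genes that act on collagen were read from 8 lists chosen for their function. Their counts stand beside 24.6% higher and 24.1% lower among all genes tested in H2O2 against control (39.5% and 39.1% among genes of at least 20 CPM), 32.4% and 31.3% in pretreated H2O2 against H2O2 (35.9% and 46.1%), and 33.7% and 29.5% in pretreated H2O2 against control (38.2% and 41.9%). Of 14 tested genes for hydroxylation and glycosylation of collagen chains, 6 were higher and 3 lower in H2O2 against control, 1 higher and 10 lower in pretreated H2O2 against H2O2, and 3 higher and 7 lower in pretreated H2O2 against control, with medians of 0.00, −0.20 and −0.07. Plod2, the lysyl hydroxylase of the chain ends, was the 1 gene of the list called higher in pretreated H2O2 than in H2O2, with 110 ± 4.9 CPM in pretreated H2O2, 84.6 ± 3.1 CPM in H2O2 and 121 ± 3.7 CPM in control libraries (SD, n = 3 each; 0.37 against H2O2, adjusted p = 3.09e-06). P3h2, a prolyl 3-hydroxylase acting on type IV collagen, was lower at 1.36 CPM in pretreated H2O2 than at 2.49 CPM in H2O2 (−0.87, adjusted p = 0.0113), a call lost without H2O2 replicate 1 (−0.60, adjusted p = 0.0644). The abundant members P4hb and Ppib, a prolyl hydroxylase subunit and a cyclophilin that helps collagen fold, were higher in H2O2 than in control (0.20 and 0.46), and lower in pretreated H2O2 than in H2O2 (−0.12 and −0.23). With the length offset P4hb was no longer called in H2O2 against control (0.03).

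Among 18 chaperone and secretion genes, 8 were higher and 7 lower in H2O2 against control, shares near those of all genes of at least 20 CPM, 5 higher and 9 lower in pretreated H2O2 against H2O2, and 6 higher and 9 lower in pretreated H2O2 against control. Hspa5, a general chaperone of the endoplasmic reticulum, averaged 2367 CPM in pretreated H2O2, 1112 CPM in H2O2 and 943 CPM in control libraries (1.09 ± 0.021 against H2O2, SE, adjusted p = 5.92e-13). Serpinh1, the chaperone specific to procollagen, went the other way, with 919 CPM in pretreated H2O2, 1126 CPM in H2O2 and 940 CPM in control libraries (−0.29 against H2O2, adjusted p = 9.55e-08), and its higher value in H2O2 against control (0.26) was not called with the length offset (0.03). Tmem131, needed for collagen export in studies of worms and human cells, averaged 118, 81.5 and 132 CPM in pretreated H2O2, H2O2 and control libraries. Of the 6 tested genes that cut procollagen, 1 was higher and 3 lower in H2O2 against control, 3 higher and 2 lower in pretreated H2O2 against H2O2, and 1 higher and 4 lower in pretreated H2O2 against control. Adamts14, which removes amino-terminal propeptides, averaged 7.47 CPM in pretreated H2O2, 8.83 CPM in H2O2 and 16.2 CPM in control libraries, and Pcolce, an enhancer of carboxy-terminal cleavage, averaged 354, 505 and 457 CPM. Bmp1, the main carboxy-terminal proteinase, was lower in H2O2 than in control without the offset (−0.17) and higher with it (0.15). Tll2, a relative of Bmp1, averaged 3.87 ± 0.39 CPM in pretreated H2O2 libraries and was at 0 counts in the 6 others. It was among the 3 called higher against H2O2 and was the 1 called higher against control. Because it passed the filter only through the pretreated H2O2 libraries, a higher value there was a condition of its being tested.

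Crosslinking genes were lower in H2O2 against control for 4 of 7 tested members and higher for none, and pretreated H2O2 against H2O2 had 2 higher and 3 lower. Lox, the principal crosslinking oxidase, averaged 1006 ± 22 CPM in pretreated H2O2, 596 ± 12 CPM in H2O2 and 922 ± 15 CPM in control libraries (SD, n = 3 each). Its H2O2 libraries were the lowest of the 9 (−0.63 for H2O2 against control and 0.75 for pretreated H2O2 against H2O2, adjusted p = 2.84e-10 and 3.02e-11). Pxdn, the peroxidase that joins type IV collagen molecules, showed the same order more widely, with 137 CPM in pretreated H2O2, 60.2 CPM in H2O2 and 207 CPM in control libraries, that is −1.78 ± 0.030 for H2O2 against control and 1.19 ± 0.030 for pretreated H2O2 against H2O2 (SE, adjusted p = 9.57e-13 and 7.47e-12). Loxl1 was lower in both, with 242, 272 and 326 CPM in pretreated H2O2, H2O2 and control libraries. Against control, 1 crosslinking gene was higher with pretreatment and 4 were lower.

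Of 13 tested fibril-associated proteoglycans and glycoproteins, 6 were lower and 1 higher in H2O2 against control, and 4 were higher and 6 lower in pretreated H2O2 against H2O2. Fn1, the fibronectin gene, averaged 3283 CPM in pretreated H2O2, 1887 CPM in H2O2 and 3137 CPM in control libraries, and Thbs1, a thrombospondin, 1307, 1663 and 2287 CPM. Among 8 tested collagen receptors and uptake genes, 6 were lower and none higher in H2O2 against control, and 5 were higher and 1 lower in pretreated H2O2 against H2O2. Ddr2, a receptor kinase for fibrillar collagen, averaged 155, 93.8 and 180 CPM in pretreated H2O2, H2O2 and control libraries, Mrc2, an endocytic collagen receptor, 236, 169 and 318 CPM, and Itga10, an integrin chain for collagen, 4.80, 0.773 and 0.908 CPM. Of 8 tested collagen-cleaving proteases and inhibitors, 6 were higher and 1 lower in pretreated H2O2 against H2O2, and 2 higher and 3 lower in H2O2 against control. Timp3, an inhibitor of matrix metalloproteinases, averaged 1222 CPM in pretreated H2O2, 139 CPM in H2O2 and 172 CPM in control libraries (3.14 ± 0.026 against H2O2, SE, adjusted p = 4.35e-16). Its lower value in H2O2 against control (−0.31) was not called with the length offset (−0.03).

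TGF-beta signalling is the best-known inducer of fibrillar collagen genes. Of 19 tested genes of that list, 16 were lower and 1 higher in H2O2 against control, with a median of −0.37, and 12 were higher and 4 lower in pretreated H2O2 against H2O2, with a median of 0.29. With the length offset, 13 were lower and 3 higher in H2O2 against control, and 11 higher and 5 lower in pretreated H2O2 against H2O2. Against control, 7 were higher with pretreatment and 10 lower. Ccn2, a TGF-beta target known as connective tissue growth factor, averaged 947 ± 15 CPM in pretreated H2O2, 184 ± 2.1 CPM in H2O2 and 203 ± 1.1 CPM in control libraries (SD, n = 3 each; 2.36 ± 0.021 against H2O2, SE, adjusted p = 5.30e-16). Ski, a repressor of the pathway, averaged 88.3 CPM in pretreated H2O2, 65.5 CPM in H2O2 and 133 CPM in control libraries. Col1a1, Col1a2 and Col3a1 were lowest in pretreated H2O2 libraries, the group in which Ccn2 was highest. A link between these levels was not tested.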

How the data were processed

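The authors deposited 2 tables. One gives estimated counts of 55401 genes without scaling to library size, and the other repeats these for 30411 genes beside FPKM computed by the authors. Values of 4 were more frequent than 3 or 5 (9836 against 4842 and 3136). The deposited counts may therefore not be single reads, although the plan had assumed that they were. The labels' processing notes name hg38, but identifiers and coordinates are those of mouse GRCm38 (30318 genes found in GENCODE M21). A length was implied for each gene by the authors' count and FPKM. It lay within 1% of 1 constant times merged exon length for 98.4% of 9689 genes with a mean over 500 counts. Per the labels' protocols, libraries were poly(A)-selected, stranded by dUTP and read as pairs. Aligner, counting tool and use of strand in counting were not given in the sources used here, so overlapping genes may share reads.

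Counts were fitted with edgeR 4.0.16 in R 4.3.3: TMM scaling, its default filter by group, 1 mean per group over 9 libraries, quasi-likelihood tests and Benjamini-Hochberg adjustment over 18092 genes. CPM values use the scaled library sizes. Length offsets were natural splines with 5 degrees of freedom on log2 length, centred per library. The offset on the longest transcript and an offset without centring were added after seeing the data. DESeq2 1.42.0 and limma 3.58.1 were alternatives, and Python 3.11.15 and scipy 1.17.1 were used. The fits were tested on simulated data. With 4 counts taken as 1 fragment, at a floor of 3 fragments, or 12 counts, a gene lies between 0.179 and 0.217 CPM, depending on the library total. Intervals cover counting error only.

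Members, lists and tests were chosen with earlier results of these data known. Values per library are given for members averaging at least 20 CPM, for called members with a log2 fold change of at least 1 in size and a mean of at least 1 CPM, and for their partner chains. Col7a1, Col17a1, Col18a1 and Col27a1 lie outside this rule and were chosen after their values were seen. From each pathway list the 2 most abundant genes and the called gene of largest change in each comparison were eligible. Ctgf of the TGF-beta list was matched as Ccn2. Another gene of that list is not reported here. Promoters came from RefSeq.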

Additional observations from a re-analysis of the deposited data

How the results depend on the processing

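The counts of calls, and the values of genes eligible under the rules above, were recomputed under 25 other settings. The collagen genes among these were the tested ones for which the rule above asked values per library. For them, 1359 values lay outside the offsets for length or GC content. Of these, 1318 kept their direction and side of the threshold, 33 lost the call, 8 gained it and none of the called values turned round. Col7a1, Col10a1, Col15a1, Col17a1, Col18a1, Col23a1, Col27a1 and Col28a1 were tested but are not part of these values. Values called in neither fit were not read for direction.

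The count of collagen genes higher in H2O2 against control, 1 without offsets, was 0 with no filter, with DESeq2, with limma on FPKM (each of 3 forms) and with only the 6 libraries of the comparison. It was 2 with the length offset, with that on the longest transcript and with the offset without centring, and 3 with the length and GC offset and with the replicate block and length offset together. Collagen genes higher in pretreated H2O2 against control numbered 4, not 7, with limma at a mean FPKM of at least 0.1. Without 1 library in turn, the counts were 0 to 1 higher and 18 to 19 lower in H2O2 against control, 9 to 12 higher and 12 lower in pretreated H2O2 against H2O2, and 6 to 8 higher and 15 to 16 lower in pretreated H2O2 against control.

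Among the genes recomputed in this way, called values turned round under offsets alone, and the cause was not tested. In H2O2 against control Col1a2 had 0.024 (length; also with the block), 0.046 (length and GC) and 0.014 (not centred). Col5a2 had 0.19 (length; also with the block), 0.16 (length and GC), 0.27 (longest transcript) and 0.18 (not centred), Col5a1 0.015 (longest transcript), Col6a2 0.0058 (length and GC), and Bmp1 0.15 (length, not centred and with the block), 0.19 (length and GC) and 0.12 (longest transcript). In pretreated H2O2 against H2O2, Col5a1 had −0.026 (longest transcript) and −0.045 (not centred), and Col6a1 −0.039 (length and GC) and −0.24 (not centred). In pretreated H2O2 against control, Tmem131 had 0.058 (length; also with the block), 0.0092 (length and GC) and 0.067 (longest transcript), Ddr2 0.026 (length and GC) and 0.047 (longest transcript), and P4hb −0.028 (length; also with the block), −0.088 (length and GC) and −0.46 (not centred). Without centring, Ctsk also had −0.10, Itgb1 −0.015, Lox −0.13, Ppib −0.23 and Timp2 −0.23. That setting moved the median of all genes by −0.34 in pretreated H2O2 against H2O2 and by −0.35 against control, with 3794 genes higher and 8862 lower in the first and 3737 and 8721 in the second, so its values are relative to that shift.

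Replicate numbers did not pair the libraries: deviations of same-numbered libraries correlated between −0.02 and 0.05. With the replicate block, 1 collagen gene was higher and 19 lower in H2O2 against control, 11 and 12 in pretreated H2O2 against H2O2, and 6 and 16 in pretreated H2O2 against control, with 8603, 11322 and 11181 of all genes called.

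Precision is lowest for the 15 tested collagen genes under 20 CPM, and the 9 with too few counts were not tested. No group received the nanoreactor alone, so an effect of it without H2O2 could not be compared.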
